A study of Sus scrofa with 16 samples.

Results

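The comparison described here sets 4 arrays of proximal small intestine from antibiotic-treated preterm piglets against 4 arrays of the same segment from piglets given saline, 8 of the 16 arrays in the series. The arrays were chosen by their tissue and treatment labels, and all probe sets other than the manufacturer's controls were considered, 23999 of 24123. The piglets were Landrace, Large white and Duroc crosses, born preterm by caesarean section at gestation day 105, and their gut was sampled on day 5. Both groups were first fed by vein with small enteral amounts and then by tube only. The treated group of 11 piglets received ampicillin, gentamycin and metronidazol by mouth and by intramuscular injection, 2 times a day from birth, and the 13 controls received saline in the same amounts. The controls are labelled untreated in the array titles and are called so below, each array with the number in its title. The litter and any disease score behind an array were not given in the sources used here.

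Preterm intestine meets bacteria and food with an immature barrier, and necrotizing enterocolitis, an inflammatory injury of the gut wall, is its best known complication. The proximal small intestine takes up most dietary fat: enterocytes split and rebuild triglycerides, load them onto apolipoproteins and export them as chylomicrons. The same epithelium makes complement components, lectins and other secreted proteins that bind bacteria, and it detoxifies foreign compounds with cytochrome P450 enzymes. The question the design poses is which of these programmes differ when antibiotics are given from birth.

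Each array gave 1 GCRMA expression value per probe set, in log2 units, so a difference of 1 is a doubling. Of 23999 probe sets, 11538 were tested because 4 or more of the 16 arrays exceeded 5 in log2 units. They stand for 4684 annotated genes. Array medians over the tested probe sets ran from 7.97 to 8.25, and arrays of 1 group correlated at Pearson r 0.878 to 0.961. The 3′ bias of control transcripts, the 5′ minus 3′ log2 difference for GAPDH and actin, was -3.43 ± 0.65 with antibiotics and -3.79 ± 0.89 in untreated piglets (SD, n = 4 in both groups). An exact 2-sided permutation test gave p = 0.543, where 4 against 4 arrays can give 0.0286 at the least. Of 9 epithelial marker genes 8 were annotated, and all 8 were above 5 on all 8 proximal arrays. The tissue is a mixture of cells, so fewer cells of a type and less RNA per cell cannot be told apart. Beyond the title number, nothing in the labels tells the animals of 1 group apart. The limma p-values rest on the spread within groups, pooled over all 16 arrays with the distal ones included.

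Not every array was most like its own group, and untreated array 88 was the furthest from it by these measures. Untreated array 88 correlated on average at 0.943 with the 4 antibiotics arrays and at 0.903 with the other untreated arrays. At 66.1% of the tested probe sets it lay nearer to the antibiotics mean than to the mean of the other untreated arrays, against 38.3% to 50.1% for those arrays. Untreated array 89 correlated at 0.913 with the antibiotics arrays and at 0.909 with its own group. Antibiotics array 98 correlated at 0.911 with both groups and lay nearer to the mean of the other antibiotics arrays at 41.0% of probe sets. For most genes named below that missed the threshold with all arrays and passed without array 88, both values are given. Exceptions include C3, C4A and CD55, for which only the value with all arrays is given. Array 88 was singled out after its values were seen. Leaving out the untreated array nearest to the treated group tends by construction to widen the differences, though not for every gene or list.

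Few genes passed the test, and the clearest were genes of bacterial recognition and complement, which were lower with antibiotics. In a limma fit over all 16 arrays, 17 probe sets had a Benjamini-Hochberg adjusted p below 0.05, 0.147% of those tested, 7 higher and 10 lower with antibiotics. With array medians set equal 16 were higher and 15 lower, and after quantile normalization 13 and 10. At an unadjusted p below 0.05 there were 1483 probe sets, or 12.9%. Among annotated genes 12 were called, 0.256% of 4684, of which 4 rose (0.0854%) and 8 fell (0.171%). In all 12 the arrays of the groups did not overlap, which held for 3.52% of all genes. The median change over all genes was -0.06. With 1 array left out at a time, the share of genes called in either direction was 0.0427%, 5.98%, 0.512% and 0.064% without untreated arrays 83, 88, 89 and 92. Leaving out antibiotics array 86, 87, 95 or 98 gave 0.128%, 0.107%, 0.0854% and 0.79%.

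Of 13 measured genes of antimicrobial and epithelial defence 3 fell, where 0.171% of all genes fell, and none rose. Means were lower for 10 of them, with a median change of -2.57, or -1.46 without array 88. This list and those below were drawn up with earlier results of these data known. Shares of a list set beside all genes are therefore descriptive. Without untreated array 88, 5 of the 13 fell, when 2.65% of all genes fell, and without untreated array 83 or antibiotics array 86, 87 or 95, 1 of the 13 fell. DMBT1, a secreted scavenger receptor that binds and aggregates bacteria, fell. Its log2 values were 11.97, 10.49, 11.48 and 11.45 on antibiotics arrays 86, 87, 95 and 98, and 14.01, 13.64, 13.92 and 14.58 on untreated arrays 83, 88, 89 and 92. Every untreated array lay above every antibiotics array, by at least the distance from 11.97 to 13.64. The difference was -2.69 ± 0.36 on the log2 scale (SE; limma adjusted p = 0.00848). Array 88 lay with the other untreated arrays for this gene.

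SFTPD, the collectin surfactant protein D, which binds sugars on microbial surfaces, also fell. It read 3.49, 3.76, 4.13 and 5.70 with antibiotics and 8.61, 8.17, 9.37 and 7.58 without, in the same array order. The groups did not overlap, and the difference was -4.16 ± 0.65 (SE; limma adjusted p = 0.0187). A second and dimmer SFTPD probe set was called as well (limma adjusted p = 0.00848). All 4 antibiotics arrays lay under the filter level of 5 there, and it was at least 2.48-fold lower when the untreated mean is set against that level. S100A9, a calcium-binding subunit of calprotectin abundant in neutrophils, read 2.29, 2.28, 3.12 and 5.30 with antibiotics against 8.06, 6.68, 10.91 and 10.51 in untreated piglets. Its difference was -5.79 ± 1.04 (SE; limma adjusted p = 0.0435), a size that is not well determined because 3 antibiotics arrays lay close to the floor of the scale at 2.14. The 3 measured genes of the neutrophil list, S100A9 included, had lower means, with a median of -0.73. ALOX5AP and NCF1 did not pass the test (limma adjusted p = 0.348 and 0.385), and 8 annotated neutrophil genes were too dim to be tested. Of these, S100A8, the calprotectin partner of S100A9, reached 6.34 and S100A12 reached 5.92 on their brightest arrays of the series. The other 6, the granule genes ELANE and MMP9 among them, reached 2.14 to 2.60, at or near the floor. The summed level of the 3 measured genes, S100A9 included, was 6.78 to 7.97 in log2 units with antibiotics and 8.74 to 11.08 without. That sum is thus not independent of S100A9. ALOX5AP read 6.25 to 7.80 with antibiotics and 7.71 to 8.47 without, with overlap. NCF1 overlapped as well, at 3.74 to 4.87 and 4.13 to 5.73. The part of neutrophils in the S100A9 result was not tested.

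Complement is a cascade of plasma and tissue proteins that tags microbes and recruits leukocytes, and 3 of its 21 measured genes fell while none rose, where 0.171% of all genes fell. The count was 1 without untreated array 83 or 92 and 6 without array 88, when 2.65% of all genes fell. C5, the source of the C5a chemoattractant, read 6.93, 6.54, 3.89 and 6.22 with antibiotics and 10.76, 10.94, 9.36 and 10.93 without. The lowest untreated array was 89 and still exceeded every treated array, and the difference was -4.60 ± 0.67 (SE; limma adjusted p = 0.0133). C4BPB, the beta chain of the C4b-binding protein that restrains the classical pathway, read 6.998, 7.03, 7.92 and 8.56 against 10.12, 10.83, 9.79 and 11.02. It was lower by all array comparisons, with a difference of -2.81 ± 0.37 (SE; limma adjusted p = 0.00848). CFB, which forms the alternative pathway's convertase, stood at 11.23, 9.67, 10.24 and 10.70 with antibiotics and at 12.52, 12.49, 13.51 and 13.60 without, a difference of -2.57 ± 0.44 (SE; limma adjusted p = 0.0318).

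Across the complement list 18 of 21 genes had lower means with antibiotics, against 56.2% of all measured genes, and the list's median was -0.95 against -0.06 over all genes. At an unadjusted p below 0.05, 12 were lower and none was higher, where 7.88% of all genes were lower. C3, the central component, read 11.25 to 13.03 with antibiotics and 13.42 to 14.07 without, a difference of -1.65 that did not pass (limma adjusted p = 0.139). C4A, at -3.57, and the membrane regulator CD55, at -2.38, missed the threshold too (limma adjusted p = 0.0861 and 0.0953). For C1QA and C1QC, macrophage-made subunits of the recognition molecule, the differences were 0.04 and 0.17. The list thus held both large decreases and genes whose group means lay close together.

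The remaining decreases were in ARG2 and SAMHD1. ARG2, the mitochondrial arginase, which turns arginine into ornithine and urea, lay at 3.84, 3.28, 3.84 and 3.18 with antibiotics, all under the filter level of 5. It read 8.44, 5.53, 7.92 and 9.43 in untreated piglets, where array 88 was the lowest. The gene was at least 7.11-fold lower with antibiotics when the untreated mean is set against that filter level (limma adjusted p = 0.019). SAMHD1, an enzyme that degrades deoxynucleotides and limits viral replication, was the single called gene of 24 measured interferon-stimulated genes. Over all genes 0.256% were called. The list had no call without untreated array 83 or 92 or antibiotics array 87 or 95. SAMHD1 read 8.88, 7.67, 8.01 and 8.71 against 10.84, 10.26, 10.94 and 12.002, a difference of -2.70 ± 0.42 (SE; limma adjusted p = 0.0187), while the median over that list was -0.06.

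The 4 genes that rose included 3 of lipid handling. APOC2, the apolipoprotein cofactor of lipoprotein lipase, read 10.74, 10.87, 11.87 and 9.83 with antibiotics and 2.88, 6.53, 7.82 and 2.14 without. All treated arrays were higher, and untreated arrays 83 and 92 were near the floor. The difference was 5.99 ± 1.07 (SE; limma adjusted p = 0.0435).

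SLC25A1, the mitochondrial citrate carrier that supplies carbon for fatty acid synthesis, stood at 10.21, 10.41, 10.12 and 9.63 against 8.13, 8.74, 8.46 and 7.96. It rose by 1.77 ± 0.29 (SE; limma adjusted p = 0.0242), with no overlap. TMEM135, a membrane protein linked to mitochondria and peroxisomes, read 9.33, 8.88, 9.82 and 9.06 against 7.60, 7.71, 8.12 and 7.77 and rose by 1.47 ± 0.27 (SE; limma adjusted p = 0.0464). FAM114A1 read 8.21, 7.51, 7.02 and 7.81 against 4.64, 5.13, 6.05 and 5.62, a rise of 2.28 ± 0.38 (SE; limma adjusted p = 0.0292). The fatty acid elongase ELOVL6 was called at 1 probe set, at 1.78, but not at its brighter one, at 1.23 (limma adjusted p = 0.0464 and 0.388). The other 3 called probe sets have no single annotated gene.

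**Figure D1:**
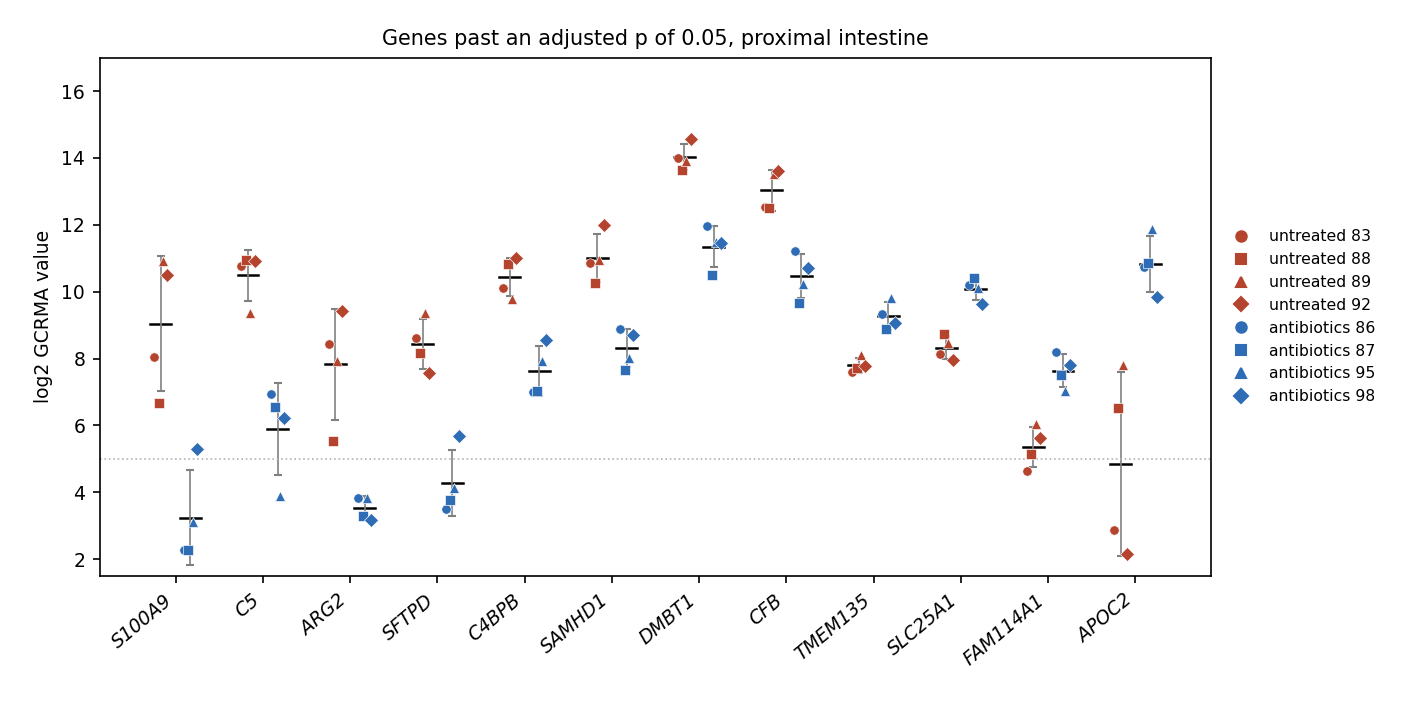
Log2 GCRMA values of the 12 called genes on each proximal array, ordered from the most negative to the most positive change; red symbols are untreated and blue symbols antibiotics arrays, black bars are group means and grey bars the SD (n = 4), and the dotted line marks the filter level of 5. The 2 groups do not overlap in any of the 12 genes, which were chosen for their difference, and APOC2 and S100A9 have the widest untreated spread.

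How many genes were called depended on single arrays. Leaving out untreated array 83 left 2 probe sets and leaving out untreated array 92 left 4, while leaving out untreated array 89 gave 41 and leaving out array 88 gave 556, or 4.82%. Leaving out antibiotics arrays 86, 87, 95 and 98 gave 7, 6, 5 and 62. C4BPB and DMBT1 passed in all 8 of these fits and C5 in 6. SAMHD1, SFTPD, FAM114A1 and CFB passed in 4, ARG2, SLC25A1, APOC2 and TMEM135 in 3, and S100A9 in 2. All 12 genes kept their direction in all 8 fits. With the 8 proximal arrays fitted alone, limma called 0 probe sets (913 at an unadjusted p below 0.05), and DMBT1 and C4BPB then had an adjusted p of 0.125.

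**Figure D2:**
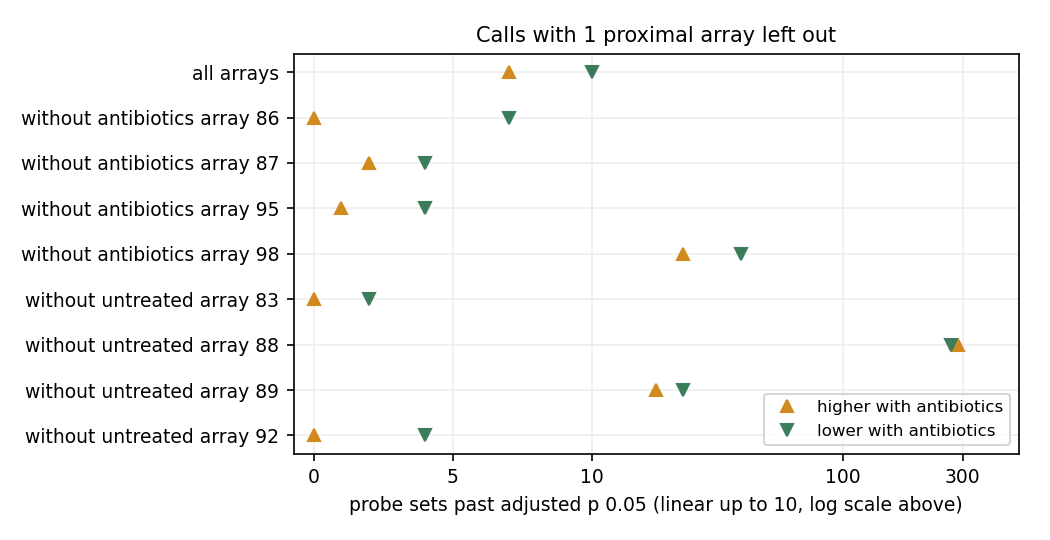
Number of probe sets past an adjusted p of 0.05 (horizontal axis, linear up to 10 and logarithmic above) with all arrays and with each proximal array left out (vertical axis); upward triangles are probe sets higher and downward triangles lower with antibiotics. The count runs from 2 without untreated array 83 to 556 without untreated array 88.

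The untreated arrays differed from each other in genes of many kinds. The median SD per gene over the untreated arrays was 0.444 over all genes. It was 1.25 in the distal segment list, 1.201 in the cytokine list, 1.11 in the arginine list and 1.09 in the xenobiotic list. It was 0.946 in the folding and stress list, and 0.891, 0.876, 0.872 and 0.849 in the leukocyte adhesion, interferon, lysosomal and enterocyte lists. Over the antibiotics arrays it was 0.457 over all genes. In the distal segment, cytokine, arginine and xenobiotic lists it was then 0.807, 0.682, 0.44 and 0.61, and in the folding list 0.524. In the leukocyte adhesion, interferon, lysosomal and enterocyte lists it was 0.591, 0.626, 0.557 and 0.433. Most of these lists thus exceeded all genes with antibiotics too, but by less. In some other lists the antibiotics SD was the larger, as for stem and Paneth cells at 0.734 against 0.42 untreated. Over the 4 untreated arrays 1176 probe sets had an SD over 1, or 10.2%, against 1064, or 9.22%, over the 4 antibiotics arrays. The median SD over all tested probe sets was 0.474 untreated and 0.484 with antibiotics, and the untreated SD was the larger at 49.9% of probe sets. The gap was in the tail, where 146 untreated and 47 antibiotics probe sets had an SD over 2. Among the 424 genes with an untreated SD over 1, 9.05% of those measured, the widest gap most often set arrays 83 and 92 below 88 and 89, in 71 genes or 16.7%. Over the 1176 probe sets the ranking was another. There the gap most often set array 89 alone lowest, in 170 or 14.5%. Arrays 83 and 92 lay below 88 and 89 in 151 or 12.8%. With antibiotics the most frequent splits set 1 array apart and held larger shares. Of 298 genes with an antibiotics SD over 1, the widest gap set array 87 alone lowest in 82 or 27.5%. It set arrays 86, 87 and 95 below array 98 in 73 or 24.5%. Over the 1064 antibiotics probe sets array 87 was alone lowest in 341 or 32.0%.

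APOM, an apolipoprotein of the lipocalin family, had one of the largest untreated spreads. It read 4.14, 12.81, 12.64 and 3.40 on untreated arrays 83, 88, 89 and 92, and between 12.12 and 13.78 with antibiotics. Arrays 88 and 89 thus stood at the treated level and arrays 83 and 92 far below it. AMBP, the precursor of alpha-1-microglobulin, followed the same split at 2.14, 8.03, 9.76 and 2.23, against 8.27 to 10.64 with antibiotics. VNN1, a brush-border pantetheinase, read 2.16, 10.95, 8.68 and 2.74 untreated and 9.07 to 10.72 with antibiotics. None of these differences passed the test with all arrays (limma adjusted p = 0.242, 0.248 and 0.267). Without array 88 the adjusted p in limma was 0.0286 for APOM, 0.0625 for AMBP and 0.0122 for VNN1.

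Of the 20 measured genes of apolipoproteins and chylomicron assembly 17 had higher means with antibiotics, where 43.8% of all genes did, with a median of 0.94. Besides APOC2 none passed, where 0.0854% of all genes rose. Without untreated array 83 or 92 or antibiotics array 86, 87 or 95 APOC2 did not pass either. Relative to the antibiotics mean the list stood at -1.5 and -1.21 on untreated arrays 83 and 92, and at -0.42 and -0.26 on arrays 88 and 89, as medians over its genes. MTTP, which loads triglyceride onto apolipoprotein B, read 12.97 to 14.01 with antibiotics and 11.93 to 13.06 without, a difference of 0.94 (limma adjusted p = 0.163, and 0.0467 without array 88). APOA2 and APOC3 differed by 2.10 and 2.25 (limma adjusted p = 0.348 and 0.377).

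Fatty acid and citrate metabolism differed less between untreated arrays. Of its 29 measured genes 25 had higher means with antibiotics, 2 rose, where 0.0854% of all genes rose, and the median was 0.56. Members of this list too were chosen with earlier results known, so that share is no test of the list. None rose without untreated array 83 or 92 or antibiotics array 86, 87 or 95. Without array 88, 6 rose, when 3.33% of all genes rose. With all arrays, all 4 untreated arrays stood at -0.79 to -0.60 relative to the antibiotics mean. ACAA2, a thiolase of mitochondrial beta-oxidation, read 11.29 to 12.75 with antibiotics and 9.77, 11.53, 10.19 and 9.72 on untreated arrays 83, 88, 89 and 92. Array 88 alone overlapped the treated range, and the difference of 1.94 missed the threshold with all arrays (limma adjusted p = 0.0973) and passed without array 88 (adjusted p = 0.00764). The cholesterol list had a median of 0.42 over 14 genes, and INSIG1, the sterol-sensing brake on cholesterol synthesis, differed by 1.12 (limma adjusted p = 0.11).

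The xenobiotic list stood at -1.26 and -0.97 relative to the antibiotics mean on untreated arrays 83 and 89, and at -0.25 and -0.30 on arrays 88 and 92. Its member CYP3A29, a porcine drug-metabolising cytochrome P450, read 14.85, 14.48, 14.97 and 14.74 with antibiotics. It stood at 14.54 on untreated array 88 but at 9.55, 9.68 and 9.18 on arrays 83, 89 and 92. With all arrays the difference was 4.02 ± 1.02 (SE; limma adjusted p = 0.131), and without array 88 it was 5.29 ± 0.73 (limma adjusted p = 0.00321). TMPRSS15, the enteropeptidase that activates trypsinogen, showed the same arrangement, at 12.82 on array 88, 6.60 to 8.60 on the other untreated arrays and 11.94 to 12.50 with antibiotics (limma adjusted p = 0.22, and 0.00632 without array 88). It belongs to the enterocyte list. Of 26 measured xenobiotic and bile acid genes none passed with all arrays, 21 had higher means and the median was 0.72. Without array 88, 7 rose and 1 fell, when 5.98% of all genes were called, and none was called with any other proximal array left out.

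Genes of the unfolded protein, amino acid and heat shock response ran the other way. These chaperones and enzymes are induced when folding in the endoplasmic reticulum or the supply of amino acids is strained. Of 25 measured genes 23 had lower means with antibiotics, with a median of -0.86, and none passed the test. HSPA5, the main chaperone of the endoplasmic reticulum, read 13.29, 12.35, 12.31 and 13.21 with antibiotics and 14.48, 12.45, 14.83 and 15.12 on untreated arrays 83, 88, 89 and 92. Array 88 again lay within the treated range, and the difference was -1.43 (limma adjusted p = 0.262, and 0.0115 without array 88). ASNS, the asparagine synthetase, read 6.50 to 8.67 with antibiotics and 12.37, 8.24, 8.66 and 12.02 without, a difference of -2.97 (limma adjusted p = 0.133, and 0.00973 without array 88). On arrays 83 and 92 ASNS was far above all others, and 88 and 89 lay within the treated range. Without array 88, 10 of the 25 genes fell, when 2.65% of all genes fell, and none passed with any other proximal array left out.

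**Figure D3:**
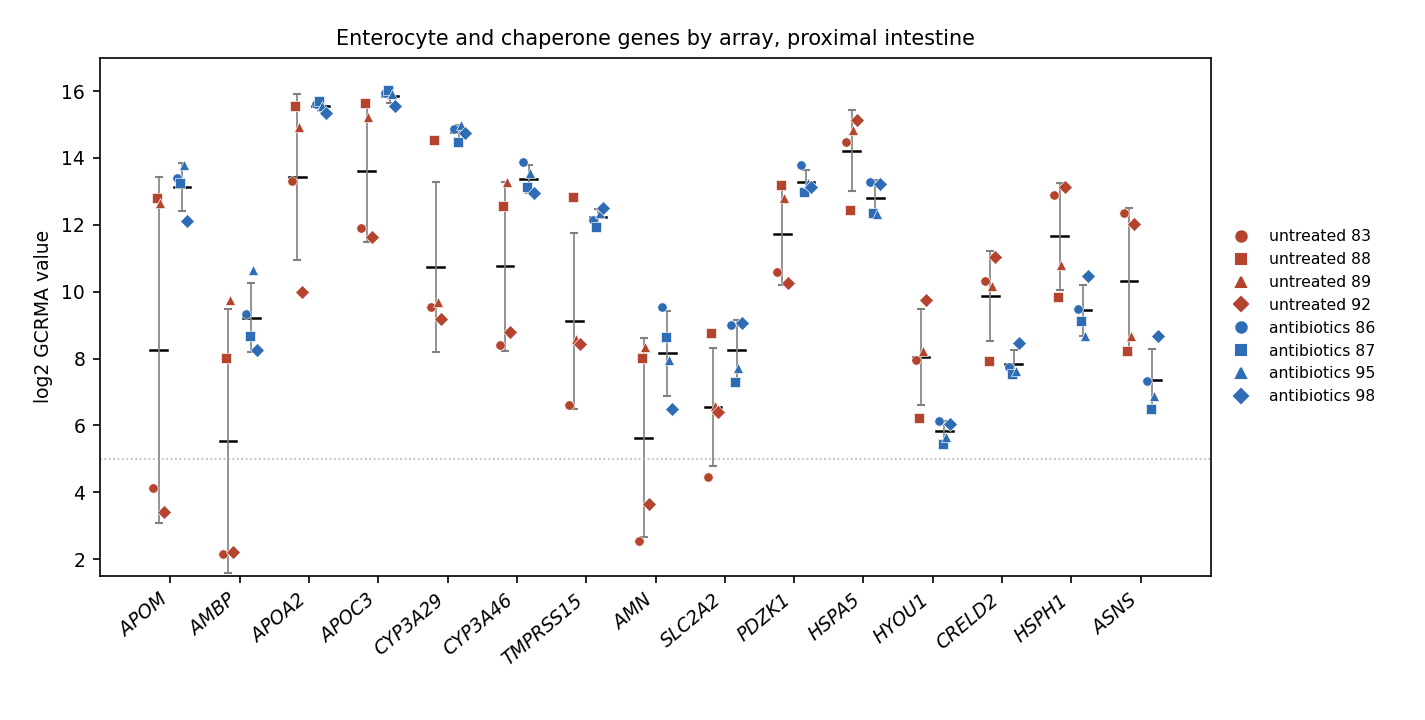
Log2 GCRMA values by proximal array for 10 enterocyte, lipoprotein and xenobiotic genes and 5 folding or amino acid stress genes, picked after their values were seen to show the untreated spread; symbols and bars are as for the called genes. Untreated array 88 (red squares) lies at or near the antibiotics level in most of these genes, while arrays 83 and 92 lie further from it.

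Leaving out array 88 gave 280 called genes, 5.98% of 4684, with 156 higher (3.33%) and 124 lower (2.65%). The complement list then had 6 genes that fell, C5, C4BPB and CFB among them, together with C4A, CD55 and C3. The fatty acid list had 6 that rose and 1 that fell, and the apolipoprotein list 5 that rose and 1 that fell. GPX2, a glutathione peroxidase of the gut epithelium, shows how far 1 array reached: it read 5.35 to 6.83 with antibiotics and 11.34, 6.20, 10.30 and 13.55 without, and its adjusted p in limma was 0.167 with array 88 and 0.00441 without it.

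**Figure D4:**
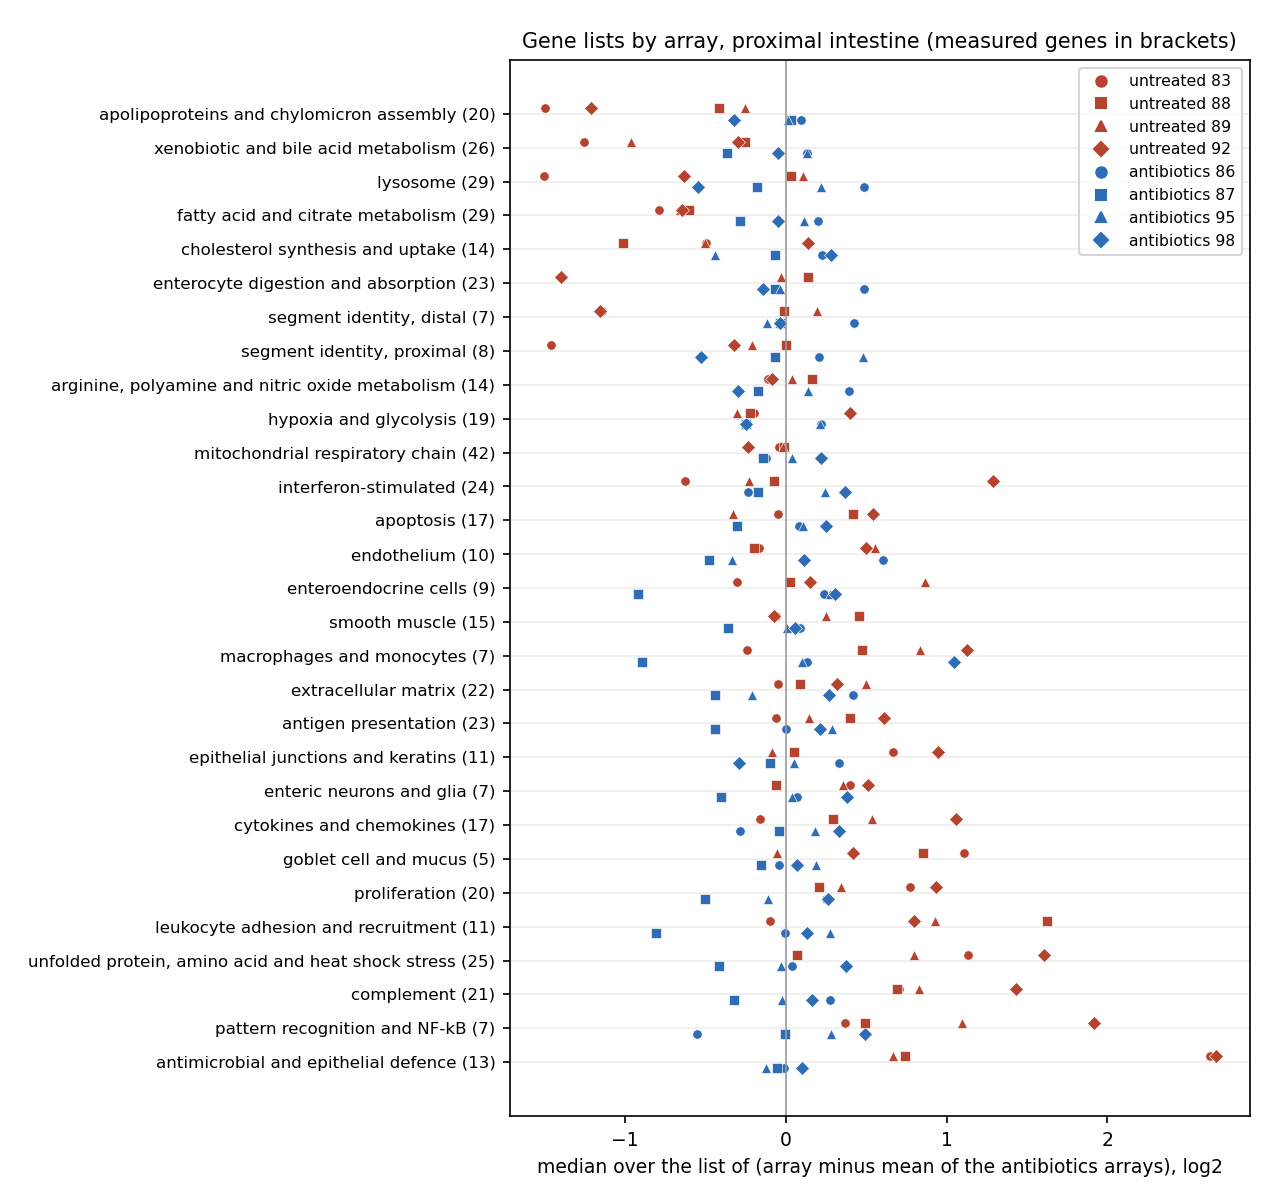
Median over each gene list of the log2 distance of an array from the mean of the 4 antibiotics arrays, for lists with at least 5 measured genes (number in brackets), ordered by the median change. Untreated arrays (red) lie to the right of the antibiotics arrays (blue) for complement and to the left for fatty acid metabolism on all 4 arrays, and are split for enterocyte digestion, where arrays 83 and 92 lie at -1.40 and arrays 88 and 89 at 0.14 and -0.03.

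Enterocyte digestion and absorption genes followed that split, with no call when all arrays were fitted. Of 23 measured genes 19 had higher means with antibiotics and the median was 0.38. PDZK1, a scaffold of brush-border transporters, read 12.97 to 13.78 with antibiotics and 10.58, 13.20, 12.82 and 10.26 on untreated arrays 83, 88, 89 and 92 (limma adjusted p = 0.207, and 0.0175 without array 88). The lysosomal list, with a median of 0.60 over 29 genes, stood at -1.51 relative to the antibiotics mean on array 83 and at 0.03 and 0.11 on arrays 88 and 89. LIPA, the lysosomal acid lipase, differed by 1.205 (limma adjusted p = 0.0865). It passed without untreated array 88 (adjusted p = 0.00878) or antibiotics array 98 (adjusted p = 0.0478).

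Among the untreated arrays, array 92 was high in interferon-stimulated genes, at 1.16 relative to the untreated mean as the list's median, where array 83 was at -0.85. ISG15, a ubiquitin-like interferon product, read 6.54, 8.37, 8.34 and 12.74 on untreated arrays 83, 88, 89 and 92, and 8.08 to 10.69 with antibiotics. CR1, a complement receptor carried by B cells and follicular dendritic cells, read 10.43 on array 88 and between 2.14 and 2.34 on the other 7 proximal arrays. CXCL13, a chemokine of lymphoid follicles, was also highest on array 88, at 10.20, but read 9.52 on array 92 and 7.90 on array 89. The polymeric immunoglobulin receptor PIGR read 8.26 on array 88 and 6.32 on array 92. The ileal bile acid carrier FABP6 read 7.40 on array 88 and 3.49 on array 89. Values of the other proximal arrays are not given here for these genes. On a scale from the proximal to the distal mean, over 168 probe sets that differed between segments, array 88 lay at 0.047. All proximal arrays lay between -0.076 and 0.130, and the distal array numbered 88 at 0.843. The sampling site of array 88 was not tested. EIF1AY, a Y-linked gene, had the largest untreated SD and read above 12 on 2 arrays of each group and under 3 on the other 2, the same number in both groups.

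CD163, CXCL8 and OLFM4 had lower means with antibiotics, missed the threshold with all arrays and passed without array 88. CD163, a scavenger receptor of macrophages, read 3.12 to 6.24 with antibiotics and 6.55 to 10.94 without. The groups did not overlap, and the difference of -3.78 had a limma adjusted p of 0.0959, or 0.00973 without array 88. CXCL8, the main neutrophil chemoattractant, read 8.86 to 11.50 against 11.77 to 14.45, a difference of -2.57 (limma adjusted p = 0.11, and 0.0145 without array 88). Of 7 measured macrophage genes 5 had lower and 2, C1QA and C1QC, higher means, with a median of -0.22. OLFM4, a glycoprotein of crypt stem cells, differed by -2.21 (limma adjusted p = 0.141, and 0.0478 without array 88), and 19 of 20 proliferation genes had lower means, with a median of -0.59. The respiratory chain, by contrast, had a median of 0.09 over 42 genes.

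The distal arrays entered the filter and the pooled estimate of spread behind the proximal p-values. Their title numbers are in part the same as those of the proximal arrays. Their group differences were used only to ask whether a proximal change differed in the distal segment. All 8 genes that fell proximally had a negative distal difference, and the test of the difference between segments passed for none of them. Over all measured genes 0.213% passed it, so that none of the 8 passed says little about them. The share of all genes with a negative distal difference is not given here. The segments share title numbers and were fitted together, so the common sign is descriptive. TMEM135 was the single called gene that differed between segments: it differed by 1.47 proximally and by -0.71 distally, and the difference of -2.18 ± 0.38 had a limma adjusted p of 0.0281. Without untreated array 83, or without antibiotics array 86, 0 of the 103 named genes passed that test.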

How the data were processed

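Total RNA of proximal and distal intestine was hybridised to Affymetrix porcine 3′ arrays. The tools GCOS 1.2, GCRMA and limma are named in the submitters' processing notes, with no settings; scan dates were not given in the sources used here. Deposited by the authors were log2 GCRMA values per probe set, with a floor at 2.14, and 39.7% of values lie under 2.5. Arrays were grouped by labelled tissue and treatment, 4 each. Of 23999 probe sets, 10069 had 1 annotated gene, 198 several and 13732 none, and 9961 matched RefSeq by gene number. Probe sets above log2 5 on at least 4 of 16 arrays were tested with a group-means model in limma 3.58.1 (R 4.3.3, statmod 1.5.0), adjusted by Benjamini-Hochberg over 11538 probe sets. Where several probe sets had the same single gene, the one brightest on average stood for it. On simulated data the fit recovered 28% of differences of 1 and 82% of differences of 2, with 7 false calls of 158. The simulated noise was normal and independent between probe sets and arrays. It had no floor and no array that deviated in many genes together, so these rates need not hold for the measured arrays. An "at least" fold sets the higher mean against log2 5 where every array of the lower group is at or under it.

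Named genes are all called genes, the 3 members of each list with the largest moderated t, and the 12 genes with the largest untreated SD; other list members were picked after their values were seen. Members and lists were chosen with earlier results of these data known. Other filters, scalings, covariates, weights, a replicate block and leaving out each array were tried. Figures were drawn with matplotlib 3.10.9.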

Additional observations from a re-analysis of the deposited data

Results flagged for a closer look

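In 206 checks of 103 named genes over the groups of 4 proximal arrays, 9 had 1 array far from the other 3, and chance gives about 1 in 20. Untreated arrays were high in CYP3A29 at 14.54 on array 88 against 9.18 to 9.68, in CR1 at 10.43 on array 88 against 2.14 to 2.25, and in the sterol desaturase SC5D at 12.15 on array 89 against 11.15 to 11.21. TLR2, a receptor for bacterial lipoproteins, read 6.40 on untreated array 92 against 4.83 to 5.00. C5 read 9.36 on untreated array 89 against 10.76 to 10.94.

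Among the antibiotics arrays, array 87 was low in the myeloid adaptor TYROBP, at 7.47 against 7.98 on each of the others, and in the chemokine CXCL14, at 11.30 against 11.90 to 11.99. Between the groups CXCL14 differed by 1.08 (limma adjusted p = 0.315, and 0.0304 without untreated array 88). Array 98 was high in CCL19, at 2.39 against 2.21, and in ARG1, at 2.58 against 2.14 to 2.15, both of which lie near the floor of the scale.

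The antibiotic effect differed between segments by the interaction test in limma for TMEM135, by -2.18 (distal minus proximal; adjusted p = 0.0281), and for INSIG1, by -2.07 (adjusted p = 0.0363). INSIG1 differed by 1.12 proximally and by -0.95 distally, and neither of those passed alone.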

How the results depend on the processing

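The count of 17 called probe sets became 1 when dim probe sets were kept, 31 with array medians set equal, 0 with the 8 proximal arrays alone, 55 with animals of both segments, 951 with array quality weights, 77 at an adjusted p of 0.10 and 11 when adjusted for 3′ bias. It ranged from 2 to 556 with 1 array left out. The 12 called genes were all kept in 10 of the 14 other alternatives. Of them 8 were kept when adjusted for 3′ bias, 10 with the position between segments as a covariate, and 0 with no filter or with the proximal arrays alone. With the animal as a random replicate block the count stayed 17, of which 16 were shared, at a correlation of 0.172. The labels do not say that the number is the animal's, and residuals of same-numbered segments correlated at 0.0293 to 0.526, over 0.1 for 5 of 7. The Y-linked EIF1AY was on the same side of log2 5 in both segments for 7 of 7 shared numbers.

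Untreated probe sets with an SD over 1 numbered 1088 to 1360 with 1 array left out, and 146 had an SD over 2. For antibiotics arrays the count was 733 to 1660 with 1 array left out, 670 with the filter at log2 7, and 47 for an SD over 2. Named genes that differed between segments numbered 2, but 0 with no filter, with the filter on proximal arrays, with animals of both segments or with segment position as a covariate, 1 with quantile normalization or adjustment for 3′ bias, 12 with array weights, and 0 to 3 with 1 array left out. Direction reversed for genes that were not called: HES1 (0.054 with animals of both segments, 0.163 with weights, -0.313 to 0.054 with 1 array left out), EIF1AY (-1.56 to 2.05 with 1 array left out), CR1 (-2.727 to 0.034 with 1 array left out) and NPG4 (-0.026 as the mean of its probe sets). Differences that reach the floor have no well determined size.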
